A study of Mus musculus with 20 samples.

Results

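The C1q and TNF related proteins (gene symbols *C1qtnf*) are described here by the counts of 8 genes, *C1qtnf1*, *C1qtnf2*, *C1qtnf3*, *C1qtnf4*, *C1qtnf6*, *C1qtnf7*, *C1qtnf9* and *C1qtnf12*, out of 54532 genes in the table. The members were chosen by name and by the measured rise of *C1qtnf6* in these libraries, to ask how particular that rise was within the family. For these 8 genes the difference between the groups is therefore given as a description, with no p-value. All 8 passed the filter on low counts and were among the 15984 genes tested. The table holds 9 *C1qtnf* genes in all. The remaining one, *C1qtnf5*, had 0 counts in every library, and all 1589 bp of its exons lie on the same strand inside *Mfrp*, whose own counts were between 2 and 25.

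The tissue was the mouse temporomandibular joint (TMJ), taken as the condylar heads with a portion of the subchondral bone, and its RNA was sequenced. Every animal carried both the tamoxifen-inducible Cre of the *Acan* (aggrecan) locus and floxed *Loxl2* alleles (Acan-Cre; Loxl2 fl/fl), so that deletion is limited to aggrecan-expressing cells. By the study's account, the 8 controls (4 males) received vehicle. The 12 knockout animals (6 males) received tamoxifen at 75 mg/kg on 5 days and monthly afterwards. Treatment began at 6 months of age and tissue was taken 4 months later. The strain background and the sex of each library are not given in the sources used here. Because only the knockout animals received tamoxifen, the drug and the deletion cannot be told apart.

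Library totals were between 11153820 and 27045668 counts, and the libraries differed from each other beyond sampling noise. Levels are given as CPM (counts scaled by library size), with sizes corrected by the trimmed mean of M-values (TMM). Over its uncorrected total, 3 counts correspond to 0.269 CPM in the shallowest library. For *Loxl2*, the targeted gene, controls (n = 8) averaged 64.5 ± 30.9 CPM and libraries labelled knockout (n = 12) 101 ± 26.9 CPM, where ± is the SD here and below. It exceeded the control median in 11 of 12 libraries labelled knockout. The edgeR log2 fold change was 0.64 with an SE of 0.28 (adjusted p = 0.101), so the target was not lower where the labels say it was deleted. Whole-gene counts can include transcripts that lack the deleted exons. The tissue labels were checked against cell type lists. The genes of the chondrocyte list, of which 11 of 14 were tested, summed to between 88.5 and 4365 CPM in control. In the libraries labelled knockout the sum was between 573 and 7238 CPM. *Matn1*, a gene of this list, had a median of 0 over all libraries. Skeletal muscle genes summed to between 37295 and 193016 CPM over all libraries. The 4 genes of a Y chromosome list summed to a median of 0.298 CPM in control (0 to 194 CPM). In the libraries labelled knockout their median was 50.7 CPM (0 to 143 CPM). A control median this near 0 is lower than 4 males among 8 control libraries would be likely to give. Which libraries came from males was not assigned.

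Most C1q and TNF related proteins are secreted proteins with a collagen-like stalk and a globular C1q domain, and assemble as trimers. The fold of the C1q domain resembles that of tumour necrosis factor. The family belongs to the same superfamily as adiponectin and the complement component C1q, and several of its members act as hormones of metabolism. *C1qtnf6* encodes a family member known to restrain the alternative pathway of complement in arthritis. *C1qtnf3*, also called cartducin, was described in cartilage and its precursor cells. *C1qtnf1* encodes a protein of fat and vessel wall, *C1qtnf12* encodes adipolin, an insulin-sensitising hormone, and *C1qtnf9* encodes one of the members nearest to adiponectin.

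The bases before the start sites of the pair of members with the largest differences between the groups, *C1qtnf6* and *C1qtnf3*, are shown because both lie on chromosome 15 and their start regions differ in composition. Sequences were taken from RefSeq (GRCm38.p6), which held 5 of the 8 members, *C1qtnf2*, *C1qtnf3*, *C1qtnf6*, *C1qtnf7* and *C1qtnf9*. Each run is 250 bases, 5′ to 3′ on the strand of the gene, and ends at the base before the start. Capitals mark matches to the letters TATAAA, to the GC box, spelt GGGCGG, or to the AP-1 motif, spelt TGANTCA. The E-box, spelt CACGTG, was searched as well, each motif on both strands.
C1qtnf6, chr15:78529652-78529901, minus strand: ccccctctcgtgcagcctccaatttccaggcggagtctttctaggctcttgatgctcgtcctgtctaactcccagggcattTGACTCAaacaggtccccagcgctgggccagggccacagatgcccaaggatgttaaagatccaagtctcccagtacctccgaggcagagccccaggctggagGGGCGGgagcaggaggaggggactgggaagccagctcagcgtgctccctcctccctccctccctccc
C1qtnf3, chr15:10952082-10952331, plus strand: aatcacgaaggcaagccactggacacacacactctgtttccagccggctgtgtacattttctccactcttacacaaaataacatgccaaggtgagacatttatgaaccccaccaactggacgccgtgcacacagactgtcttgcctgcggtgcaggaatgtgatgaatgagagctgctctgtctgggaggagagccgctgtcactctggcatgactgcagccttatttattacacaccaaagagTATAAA
The window of *C1qtnf6* had a GC content of 62.8% and that of *C1qtnf3* 49.2%, against a median of 52.4% over all promoters of the table. That of *C1qtnf6* lay within the gene as GENCODE annotates it but over no exon, and that of *C1qtnf3* lay over no gene. *C1qtnf6* held an AP-1 motif at position -169 and a GC box at -67, counted from the start, and *C1qtnf3* held TATAAA at -6. No motif overlapped another. Among 32851 promoters of the same length, the AP-1 motif was present in 6.75%, the GC box in 32.7%, TATAAA in 12.4% and the E-box in 6.02%. These matches describe letters only.

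*C1qtnf6* differed most between the groups, and *C1qtnf3* and *C1qtnf1* were also higher in the libraries labelled knockout. *C1qtnf4* was lower. The other 4 members differed by less. By the edgeR quasi-likelihood test over all genes, 4 of the 8 members passed the adjusted threshold of 0.05, 3 of them higher (*C1qtnf1*, *C1qtnf3* and *C1qtnf6*) and 1 lower (*C1qtnf4*). Over all 15984 tested genes the share that passed was 23.0%, of which 12.0% were higher and 11% lower. As the rule used this contrast, nothing is read from the counts. The log2 fold change was positive for 6 of 8 members. Its median was 0.58 over the 8, 0.52 without *C1qtnf6* and -0.02 over all tested genes. In bulk tissue, a higher or lower level cannot be told apart from more or fewer cells of the type that expresses the gene.

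*C1qtnf6* (ENSMUSG00000022440) lies on chromosome 15 from 78523346 to 78531416 on the minus strand (GRCm38/mm10). In control its lowest, median and highest levels were 7.66, 17.0 and 39.2 CPM, from 100 to 609 counts. In the libraries labelled knockout they were 35.6, 78.3 and 131 CPM, from 704 to 4084 counts. Control replicate 5 was the highest control, and it alone exceeded the lowest library labelled knockout, replicate 12. Thus 11 of 12 libraries labelled knockout were above every control and 7 of 8 controls were below every library labelled knockout. Controls (n = 8) averaged 19.4 ± 9.35 CPM and libraries labelled knockout (n = 12) averaged 81.2 ± 26.4 CPM. The log2 fold change was 2.06 (SE 0.26), or 4.18-fold, with a 95% interval of the log2 fold change from 1.55 to 2.57. Of all tested genes, 0.613% had a larger positive log2 fold change. The groups did not overlap for 48 of the 15984 tested genes, or 0.300%, and for 0 of the 8 members.

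**Figure D1:**
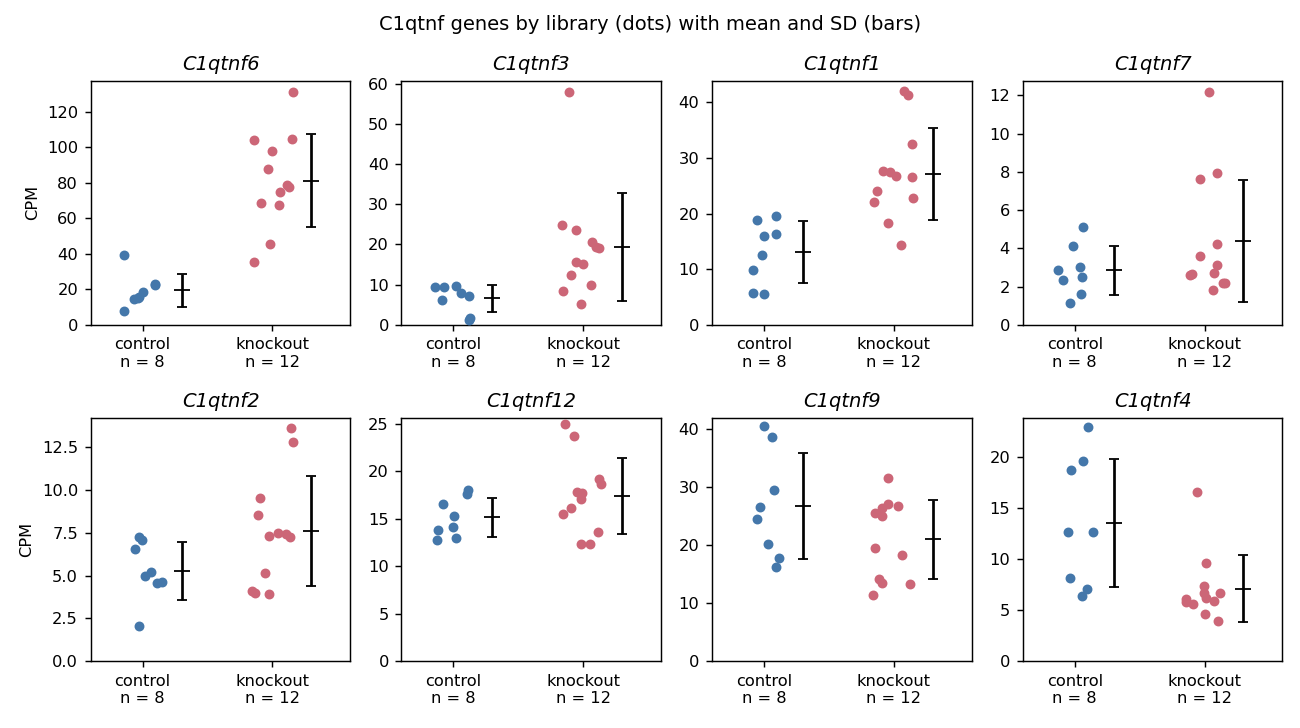
Level of each member in every library (CPM, linear axis from 0, scaled per gene), with 8 control libraries and 12 libraries labelled knockout (marked knockout). Dots are libraries and the bars beside them their mean with SD. For *C1qtnf6*, 11 of 12 libraries labelled knockout lie above the highest control of 39.2 CPM, whereas the groups of *C1qtnf9* and *C1qtnf12* overlap over most of their range.

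*C1qtnf3* (ENSMUSG00000058914, chromosome 15, 10952332 to 10980150, plus strand) was 1.24 CPM at the lowest, 7.54 at the median and 9.65 at the highest in control. In the libraries labelled knockout the lowest was 5.26, the median 17.4 and the highest 57.9 CPM, the last in replicate 11. Here 10 of 12 were above every control. Controls averaged 6.58 ± 3.37 CPM and libraries labelled knockout 19.4 ± 13.6 CPM, and the log2 fold change was 1.55 (SE 0.41), or 2.92-fold. Relative to its mean, this cartilage-associated gene spread more widely among the libraries labelled knockout than *C1qtnf6* (coefficient of variation 69.9% against 32.5%).

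*C1qtnf1* (ENSMUSG00000017446, chromosome 11, 118428203 to 118449963, plus strand) rose in the same direction by a smaller step. Its lowest, median and highest levels were 5.46, 14.2 and 19.5 CPM in control against 14.3, 26.7 and 42.0 CPM in the libraries labelled knockout. All 12 were above the control median and 10 above the highest control. The log2 fold change was 1.06 (SE 0.24), or 2.08-fold. Controls averaged 13.0 ± 5.58 CPM and libraries labelled knockout 27.2 ± 8.26 CPM. Reads of this gene are less certain than those of the others, since 20.1% of its 50-base stretches also occur in other genes, mostly in the antisense gene *Gm11747*, which overlaps its exons by 642 bp. The use of strand in the counting is not given in the sources used here. *Gm11747* itself had at most 10 counts. *C1qtnf6* shares 117 bp with the antisense gene *Gm49490* (3 to 27 counts), and 2.58% of its stretches occur elsewhere.

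*C1qtnf4* (ENSMUSG00000040794, chromosome 2, 90885860 to 90890525, plus strand), which encodes a member found mainly in brain, moved the other way. Control levels were 6.41 CPM at the lowest, 12.7 at the median and 22.9 at the highest, and the libraries labelled knockout had 3.94, 6.19 and 16.6 CPM. In 11 of 12 the level was below the control median. Controls averaged 13.5 ± 6.27 CPM and libraries labelled knockout 7.11 ± 3.29 CPM, and the log2 fold change was -0.93 (SE 0.26). The groups overlapped more than those of the 3 members above, since control replicate 2 was near the median of the libraries labelled knockout.

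The other 4 members did not pass the threshold. *C1qtnf7* (ENSMUSG00000061535, chromosome 5, 43515538 to 43618803, plus strand), the scarcest, averaged 2.84 ± 1.29 CPM in controls and 4.41 ± 3.19 CPM in libraries labelled knockout. Their median was 2.91 CPM, and replicate 7 reached 12.2 CPM. *C1qtnf2* (ENSMUSG00000046491, chromosome 11, 43474276 to 43491525, plus strand), a member studied in metabolism, averaged 5.28 ± 1.69 and 7.59 ± 3.20 CPM. The log2 fold changes of *C1qtnf7* and *C1qtnf2* were 0.63 (SE 0.37) and 0.52 (SE 0.26). For *C1qtnf2*, 8 of 12 libraries labelled knockout were above the highest control. *C1qtnf12* (ENSMUSG00000023571, chromosome 4, 155962318 to 155966629, plus strand) varied least, averaging 15.2 ± 2.06 CPM in controls and 17.4 ± 3.99 CPM in libraries labelled knockout, and its log2 fold change was 0.20 (SE 0.13). *C1qtnf9* (ENSMUSG00000071347, chromosome 14, 60768134 to 60780869, plus strand) averaged 26.8 ± 9.07 and 21.0 ± 6.83 CPM, its log2 fold change was -0.35 (SE 0.21), and 7 of 12 libraries labelled knockout were below the control median.

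**Figure D2:**
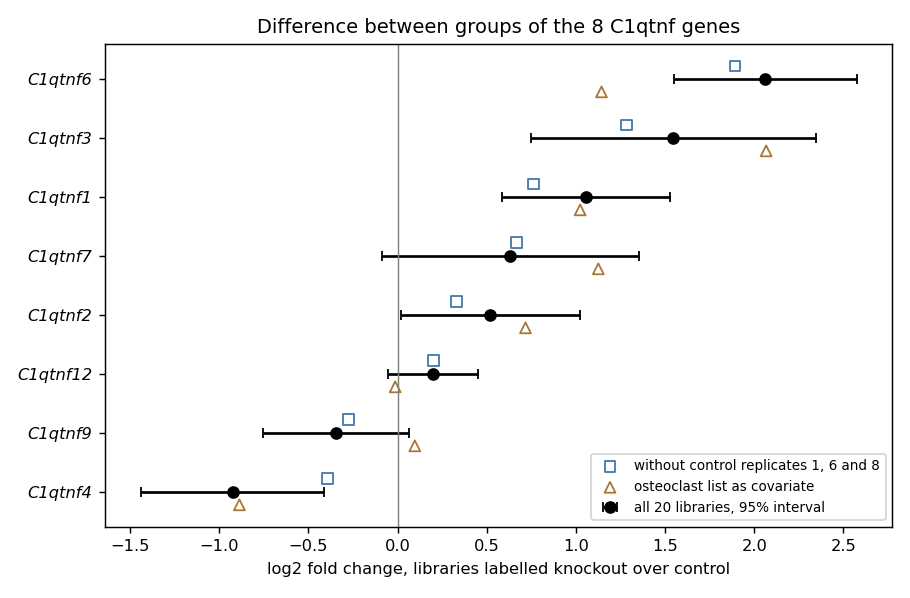
Log2 fold change of each member, libraries labelled knockout (n = 12) over control (n = 8), as filled circles with 95% intervals (normal approximation from the edgeR SE). Squares give the value without control replicates 1, 6 and 8 and triangles that with the osteoclast list as covariate. *C1qtnf6* stands at 2.06 and *C1qtnf3* at 1.55, but at 1.14 and 2.07 with the covariate.

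How far *C1qtnf6* stood apart was examined as its log2 ratio to each other member within a library (difference of log2 CPM). The ratio to *C1qtnf4* was higher by 2.99 (SE 0.47) in the libraries labelled knockout, and that to *C1qtnf9* by 2.46 (SE 0.45). Against *C1qtnf12* the difference was 1.94 (SE 0.24). This was the one ratio without overlap, from -0.73 to 1.23 in control and from 1.46 to 2.93 in the libraries labelled knockout. The ratios to *C1qtnf2* and *C1qtnf7* were each higher by 1.63 (SE 0.29 and 0.40), and that to *C1qtnf1* by 0.98 (SE 0.26). Against *C1qtnf3* the difference was 0.53 (SE 0.44), and 9 of 12 libraries labelled knockout lay within the control range. Each ratio contains the rise for which *C1qtnf6* was chosen, so nothing is read from the lack of overlap against *C1qtnf12*. How many other genes would give a ratio to *C1qtnf6* without overlap was not counted.

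Levels of different genes were compared as CPM per kilobase of annotated exon (CPM per kb). In control, *C1qtnf9* was the highest at 14.1 ± 4.77 CPM per kb (n = 8), followed by *C1qtnf12* at 11.1 ± 1.51, *C1qtnf4* at 10.5 ± 4.86 and *C1qtnf6* at 7.19 ± 3.46 CPM per kb. Below them came *C1qtnf2* at 4.04 ± 1.30, *C1qtnf1* at 4.16 ± 1.78, *C1qtnf3* at 2.57 ± 1.32 and *C1qtnf7* at 0.683 ± 0.309 CPM per kb, ordered by mean log2 level. Neighbours among the first 4 did not differ beyond their spread (exact two-sided sign-flip permutation test, adjusted p = 0.372, 0.529 and 0.372 over 7 pairs of neighbours). Members farther apart in the order, such as *C1qtnf12* and *C1qtnf6*, were not tested against each other, so these values do not show that the first 4 were alike. *C1qtnf6* exceeded *C1qtnf2* in 8 of 8 controls, by 0.78 ± 0.45 log2 units (SD; exact permutation p = 0.00781, adjusted p = 0.0273). *C1qtnf1* likewise exceeded *C1qtnf3* in 8 of 8, by 0.85 ± 0.60 (SD; exact permutation p = 0.00781, adjusted p = 0.0273). The smallest p this design allows is 0.00781. With the length of the longest transcript in place of all exons, *C1qtnf1* and *C1qtnf2* changed places and 0 of the 7 pairs passed. When any 1 control was left out 0 passed as well, but the smallest p allowed is then larger, so the omissions cannot decide the order. *C1qtnf2* and *C1qtnf1* did not differ beyond their spread (exact permutation, adjusted p = 0.953), nor did *C1qtnf3* and *C1qtnf7* after adjustment (higher in 7 of 8 libraries, exact permutation p = 0.0234, adjusted p = 0.0547).

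In the libraries labelled knockout, *C1qtnf6* headed the order at 30.1 ± 9.78 CPM per kb (n = 12). *C1qtnf12* followed at 12.8 ± 2.92 and *C1qtnf9* at 11.1 ± 3.59 CPM per kb. *C1qtnf1*, *C1qtnf3*, *C1qtnf2* and *C1qtnf4* ran from 8.67 ± 2.64 down to 5.51 ± 2.55 CPM per kb, and *C1qtnf7* stayed last at 1.06 ± 0.767. *C1qtnf6* exceeded *C1qtnf12* in 12 of 12 of these libraries, by 1.19 ± 0.48 log2 units (SD). Since *C1qtnf6* was chosen for its rise, this order is given without a test.

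**Figure D3:**
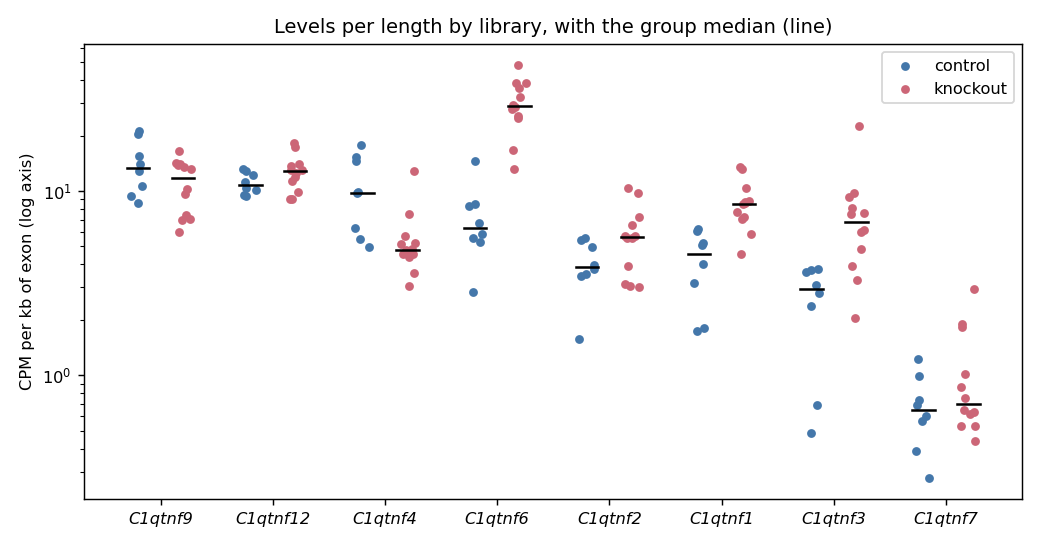
Level of each member per kilobase of annotated exon (CPM per kb, log axis), members in the order of the control levels. Dots are the 8 control libraries and the 12 libraries labelled knockout (marked knockout), and lines are the group medians. *C1qtnf6* has a control mean of 7.19 CPM per kb, with 3 members before it, and stands above the other members at 30.1 CPM per kb in the libraries labelled knockout.

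As a share of the summed CPM per kb of the 8 members, *C1qtnf6* took 13.2% ± 5.85 of the control total (n = 8), between 5.18% and 24.6%. In the libraries labelled knockout it took 35.9% ± 9.08 (n = 12), between 24.4% and 52.4%. It was the top member in 1 of 8 control libraries and in 11 of 12 libraries labelled knockout. *C1qtnf9* had a mean share of 25.8% in control and 14.0% in the libraries labelled knockout, and was on top in 4 controls and 1 library labelled knockout. *C1qtnf4* went from 19.2% to 6.69%. The family sum itself averaged 54.3 ± 5.31 CPM per kb in controls and 82.5 ± 12.8 CPM per kb in libraries labelled knockout. A share of a sum moves when any member moves, so these values restate the levels in another form.

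Cell type lists moved with the groups. The score of an osteoclast list, the mean standardised log2 CPM of its 10 genes, was higher in the libraries labelled knockout by 1.32 (exact two-sided permutation p = 0.000286, adjusted over 16 lists p = 0.00229), with 9 of 10 genes past the edgeR threshold. Its summed level was between 115 and 1023 CPM in control and between 486 and 5709 CPM in the libraries labelled knockout. An osteoblast and osteocyte list was higher by 1.002 (exact permutation, adjusted p = 0.0341, 6 of 11 genes). Its summed level was between 1314 and 12358 CPM in control against 4034 to 38969 CPM. A skeletal muscle list was lower by 0.86 (a score difference of -0.86, exact permutation, adjusted p = 0.0392, 5 of 11 genes). Macrophage and mast cell lists were higher by 1.13 each (exact permutation, adjusted p = 0.00229 and 0.0238), with 4 genes of 7 and 4 of 5 tested past the threshold. The chondrocyte list differed by 0.43 (exact permutation, adjusted p = 0.425). The remaining 10 lists did not pass the threshold.

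The members followed these lists to different degrees between libraries of the same group. The following values of Pearson's r are over 20 libraries with the group means subtracted. They are descriptions, since all values of a library share its cell composition and depth. For *C1qtnf6*, r was 0.80 with the osteoclast list, 0.75 with the osteoblast and osteocyte list and -0.84 with the skeletal muscle list. *C1qtnf3* and *C1qtnf1* had their highest r with the chondrocyte list (0.59 and 0.63), and *C1qtnf2* and *C1qtnf7* with the fibroblast list (0.84 and 0.81). The division was not clean, since *C1qtnf1* had r = 0.51 with the osteoblast and osteocyte list and *C1qtnf6* r = 0.50 with the chondrocyte list. *C1qtnf9* had r = 0.66 with the endothelial list and 0.68 with skeletal muscle. For *C1qtnf4* the highest r was 0.52, with the neuron and glia list. The sums of that list were highest in control replicate 1 (1056 CPM) and in replicate 10 labelled knockout (1263 CPM). With the osteoclast score as a covariate, the log2 fold change of *C1qtnf6* was 1.14 (SE 0.21), below the 2.07 of *C1qtnf3*, and 0 genes of the table passed the threshold in edgeR (1489 at an unadjusted p under 0.05). This fit was not run in DESeq2. With the osteoblast and osteocyte score *C1qtnf6* was at 1.54, and with the skeletal muscle score at 1.46. Each of these scores itself differed between the groups, so the fits cannot tell cell composition apart from the group. How much of the difference in *C1qtnf6* comes from cell composition was not tested.

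**Figure D4:**
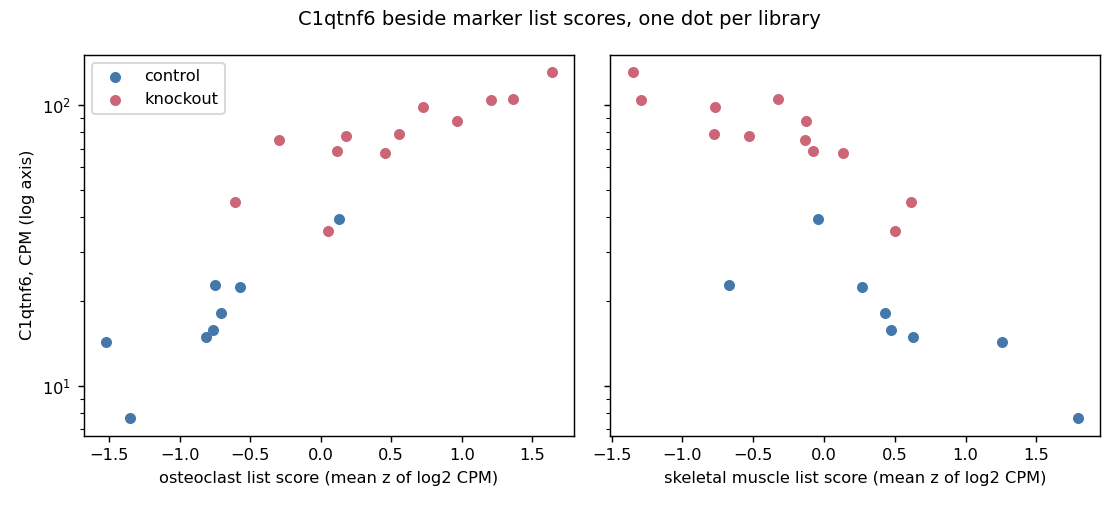
Level of *C1qtnf6* (CPM, log axis) against the osteoclast score (left) and the skeletal muscle score (right), each the mean z-score of log2 CPM over the list. Each dot is 1 of 20 libraries, colored by group. *C1qtnf6* tends to be higher with the osteoclast score (r = 0.80 with group means subtracted) and lower with the skeletal muscle score (r = -0.84).

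Certain control libraries bear on the smaller differences. Control replicates 6 and 8 had the lowest sums of chondrocyte genes (271 and 88.5 CPM), and replicate 8 had the highest skeletal muscle sum. Control replicate 1 had the highest control sum of neuron and glia genes (1056 CPM), followed by control replicate 5 (691 CPM). Replicate 10 of the libraries labelled knockout had 1263 CPM. Without control replicates 1, 6 and 8, *C1qtnf6* was at 1.89 and *C1qtnf1* at 0.76 on the log2 scale, *C1qtnf3* at 1.28 and *C1qtnf4* at -0.39. The members past the threshold then numbered 2 in place of 4 (*C1qtnf3* and *C1qtnf4* no longer did so), and all tested genes 1480 in place of 3673. Only controls were left out, and replicate 10 labelled knockout was kept. Having fewer controls can by itself lower the number of genes that pass.

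The members also differed among themselves in which of them varied together. With group means subtracted over 20 libraries, *C1qtnf1* and *C1qtnf3* had r = 0.78, *C1qtnf1* and *C1qtnf6* 0.56, and *C1qtnf2* and *C1qtnf7* 0.53. *C1qtnf6* and *C1qtnf3*, the pair with the largest fold changes, had only r = 0.26. *C1qtnf9* ran opposite to *C1qtnf6* (r = -0.57) and to *C1qtnf12* (r = -0.67). Among 10756 genes of at least 5 CPM, those nearest to *C1qtnf6* were *Pdk3*, a kinase of pyruvate dehydrogenase (r = 0.95), *Bmp1*, the procollagen C-proteinase (r = 0.93), *Rcn1*, a calcium-binding protein of the endoplasmic reticulum (r = 0.93), *Serpinh1*, the collagen chaperone (r = 0.92), and *Cdr2l* (r = 0.92). Their own log2 fold changes were between 1.24 and 1.43. Nearest to *C1qtnf1* were *Mmp2* (r = 0.90), *Timp2* and *Col5a1* (both 0.89), that is a gelatinase, an inhibitor of it and a fibrillar collagen chain. *C1qtnf3* was nearest to *Fam180a* (r = 0.86), *Tspan2* (0.85) and *Lrrc15* (0.83).

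The remaining members had other neighbours. *C1qtnf2* was nearest to *Plat*, *Emp1* and *Igfbp6* (r = 0.89 each), and *C1qtnf7* to *Ntn1* (r = 0.92), *Cd248* (0.91) and *Cgnl1* (0.90). *C1qtnf9* was nearest to *Ablim3* (r = 0.92), to *Podxl*, which encodes podocalyxin (0.89), and to *Cd300lg* (0.88). *C1qtnf12* was nearest to *Man1b1* (r = 0.86), *Unc119b* (0.85) and *Plscr3* (0.83). The weakest likeness was that of *C1qtnf4*, with *Mcat* (r = 0.77), *Get4* (0.74) and *Scand1* (0.72).

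Genes around the family were taken from 3 lists. Of 22 other genes with a C1q domain, 14 were tested, and 6 were higher and 0 lower in the libraries labelled knockout, where 12.0% of all tested genes were higher and 11% lower. Their median log2 fold change was 0.66, against -0.02 over all tested genes. The 3 chains of complement C1q were all higher. *C1qa* went from 21.6 to 47.5 CPM (log2 fold change 1.14, edgeR adjusted p = 0.0150), *C1qb* from 18.0 to 39.8 CPM (1.14, edgeR adjusted p = 0.0151) and *C1qc* from 17.0 to 38.3 CPM (1.17, edgeR adjusted p = 0.0243). The chains are made by macrophages, whose list was higher too, but no fit with the macrophage score was run and the cause was not tested. Some matrix genes with a C1q domain were also higher, namely *Col8a1*, a short-chain collagen (1.13, edgeR adjusted p = 0.0061), and *Emilin1*, an elastic-fibre protein (0.99, edgeR adjusted p = 0.0112). *Col8a2* was at 0.84 (edgeR adjusted p = 0.0497) and lost the call in 15 of 20 omissions of a single library. *Col10a1* (-0.37), *Emilin2* (0.76), *Mmrn1* (0.56) and *Mmrn2* (-0.16) did not pass the threshold. The log2 fold change was positive for 9 of the 14 tested genes. The largest in size was negative, that of *Cbln1* at -2.48 (SE 1.08), which did not pass. The log2 fold change of *C1qtnf6* was above that of each of these genes. *Adipoq*, which encodes adiponectin, averaged 4.64 ± 5.07 and 4.83 ± 6.93 CPM, and its log2 fold change was 0.05 with an SE of 0.70 (edgeR adjusted p = 0.971).

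**Figure D5:**
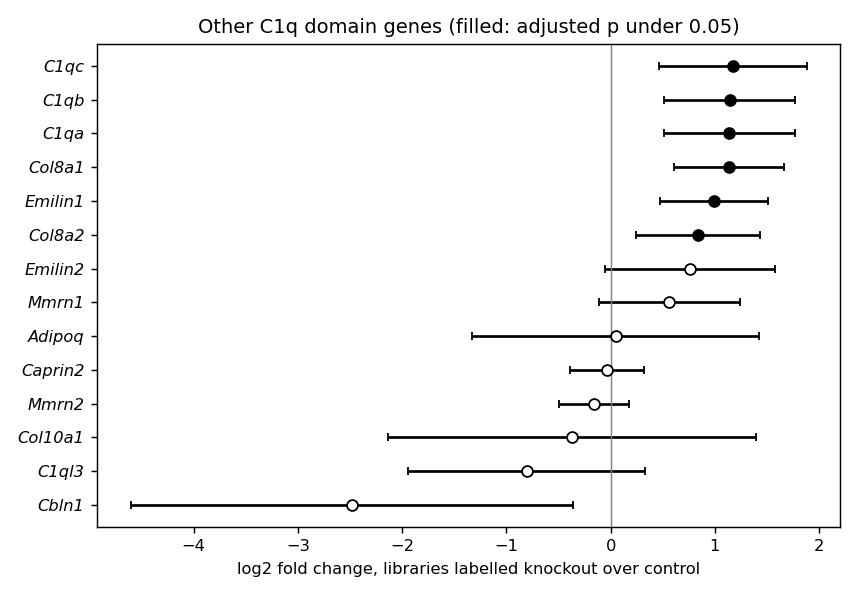
Log2 fold change of the 14 tested genes with a C1q domain outside the *C1qtnf* family, libraries labelled knockout (n = 12) over control (n = 8), with 95% intervals (normal approximation from the edgeR SE). Filled circles mark the 6 genes past the adjusted threshold, all higher, with *C1qa*, *C1qb* and *C1qc* between 1.14 and 1.17.

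Of 10 genes listed as receptors and partners, 8 were tested and 1 was higher. This share is near the 12.0% of all tested genes that were higher. The gene was *Itgb1*, the integrin beta 1 chain, from 314 to 398 CPM (log2 fold change 0.34, edgeR adjusted p = 0.0101). *Erfe*, also on this list, was at 0.24 (edgeR adjusted p = 0.561). The adiponectin receptors did not pass, with *Adipor1* at -0.36 (edgeR adjusted p = 0.0834) and *Adipor2* at -0.11. The insulin receptor gene *Insr* was at -0.29 (edgeR adjusted p = 0.0523), and *Cdh13*, the T-cadherin gene, at 0.11. Of 10 genes of the alternative complement pathway, on which the product of *C1qtnf6* is known to act, 8 were tested and 3 were higher, beside 12.0% of all tested genes. Among them were *Cfp*, encoding properdin (log2 fold change 0.64, edgeR adjusted p = 0.0232), and *C5ar1*, an anaphylatoxin receptor (1.02, edgeR adjusted p = 0.0496), which lost the call in 13 of 20 omissions. *C3* was at 0.89 (edgeR adjusted p = 0.138) and *C3ar1* at 1.14 (edgeR adjusted p = 0.0590). *Cfb*, encoding factor B, had at most 8 counts in any library, and *Hc* at most 4, so neither was tested.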

How the data were processed

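The authors deposited raw read counts per Ensembl gene, made with featureCounts 1.5.0-p3 after mapping to mm10. The aligner, the annotation and the use of strand are not given in the sources used here, so reads of overlapping genes are uncertain. Groups and replicate numbers came from the sample titles. Whether libraries came from separate animals is not stated per sample, and p-values measure the spread between libraries.

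Of 54532 identifiers, 54495 matched GENCODE M21 (GRCm38/mm10, coordinates 1-based). Counts were tested with edgeR 4.0.16 in R 4.3.3 (filterByExpr by group, TMM, quasi-likelihood F-test, two-sided, Benjamini-Hochberg, threshold 0.05) over 15984 genes, and the SE was derived from F. DESeq2 1.42.0, the tool the study used, was an alternative. Log2 CPM had a prior count of 2, and log2 CPM per kb a pseudocount of 0.01. Paired differences used all 256 sign patterns and list scores all 125970 assignments. Statistical scripts were tested on simulated data.

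The members and the gene lists were chosen with earlier results of these data known, and the neuron and glia list after the values were seen. Named genes are the members, the targeted gene, the lists, and the 5 (for *C1qtnf6*) or 3 (for others) protein-coding genes nearest by r. A gene of the complement list is not reported here by name. A floor of 3 counts covers counting error only.

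Alternatives were other scalings, DESeq2, other filters, covariates, the replicate block and omission of each library.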

Additional observations from a re-analysis of the deposited data

Results flagged for a closer look

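The 28 genes examined were the family, the targeted gene and 19 genes of the lists. Of these, 4 had a control library far from the other 7. Chance gives about 1 in 20 only for independent genes with normally distributed values. The CPM were not transformed and the genes share libraries, so no excess is read from the 4. None of the 4 was a *C1qtnf* member. Control replicate 1 was highest for *Adipoq* at 16.4 CPM, for the cerebellin gene *Cbln1* at 46.2 CPM and for *Cbln3* at 53.2 CPM, and it also carried the neuron and glia sum of 1056 CPM given above. Control replicate 8 was highest for *Adipor1* at 479 CPM.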

How the results depend on the processing

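The number of members past the threshold was 4 under other scalings, the DESeq2 Wald test and the omission of any single library, and nothing is read from it, since the rule used this contrast. The log2 fold change of *C1qtnf6* ran from 1.95 to 2.29 over the omissions, and the number of genes called ran from 2551 to 4181. With library totals alone, the median log2 fold change over the table became 0.12, and 2188 genes were called higher and 849 lower. *Adipor2* then turned to 0.066.

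With the osteoclast list as covariate, 0 genes and 0 members passed, *C1qtnf6* was at 1.14, *C1qtnf9* at 0.10, *C1qtnf12* at -0.013, *Adipor2* at 0.25 and *Cfp* at -0.088. The C1q domain, receptor and complement lists each had 0. With the osteoblast and osteocyte list, 441 genes and 1 member passed, the lists had 1, 0 and 1, and *Adipor2* was at 0.20. With the muscle list, 445 genes and 1 member passed, the lists had 0, 0 and 0, and *C1qtnf9* was at 0.069, *Adipoq* at -0.10, *Adipor1* at 0.036 and *Adipor2* at 0.16. Without 3 controls (replicates 1, 6 and 8, added after the data were seen), 1480 genes and 2 members passed and the lists had 1, 0 and 0. The cause was not tested.

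The receptor list had 2 with DESeq2 size factors, upper-quartile factors, the DESeq2 Wald test, a filter at a mean of 1 CPM or the Y chromosome list as covariate, and between 1 and 2 over the omissions. Replicate numbers did not pair the libraries: 2 of 8 pairs had a correlation over 0.1, and 1 of 16 libraries correlated best with its own number. With the replicate number as a block, 1786 genes, 3 members and 0 receptors passed, against 3280 genes and 3 members in the same 16 libraries without it.

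For the order of levels in control, 0 pairs of neighbours passed with the longest transcript as length. When a control was left out 0 passed. With fewer libraries the smallest p that the test allows is larger, so these omissions cannot decide the order. Over the omissions *Adipoq* ran from -0.46 to 0.71 and *Adipor2* from -0.20 to 0.00030.

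Depth was not limiting for the members, whose lowest count in any library was 15.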
